A study of Rattus norvegicus with 6 samples.

Results

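The polyspecific organic cation and carnitine transporters of the kidney were examined in the renal cortex of rats dosed with the hair dye ingredient 2-amino-4-nitrophenol, an aromatic amine that carries a nitro group. The group holds 5 genes, Slc22a2, Slc22a3, Slc22a4, Slc22a5 and Slc47a1, of the 15284 genes named on the array. They were chosen by name, and their probes were found through the RefSeq transcript each probe carries, 9 probes in all. Each gene was read from its brightest probe. Of the 5, 4 passed the filter on dim probes and were tested, among 11748 genes.

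Male Sprague-Dawley (Crl:CD(SD)) rats were 5 weeks old at purchase. The control group of 3 rats was given corn oil over 4 weeks. The dosed group of 3 rats was given 750 mg/kg/day of 2-amino-4-nitrophenol over the same time, and the vehicle of the dosed rats is not given in the sources used here. Total RNA from the renal cortex of each rat was labelled with Cy3 and hybridised to 1 single-colour oligonucleotide array. The comparison asks which of these transcripts differed between dosed and corn oil rats, and 3 arrays per group limit the precision of every value.

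Proximal tubule cells clear organic cations from blood to urine in 2 steps. Transporters of the SLC22 family at the basolateral membrane take up the cation, driven by the membrane potential, and the proton exchanger MATE1 releases it into the lumen in exchange for protons. OCTN1 and OCTN2 sit at the brush border, where OCTN2 recovers filtered carnitine together with sodium and OCTN1 carries the antioxidant ergothioneine. Creatinine and many cationic drugs, such as metformin, use the first route, and the loss of OCTN2 causes systemic carnitine deficiency.

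Between 61.6% and 70.9% of the 61657 non-control probes were well above background on an array, with the lower shares on the treated arrays, and no probe was saturated. The proximal tubule markers fixed for the tissue check were present, with all 9 of 9 tested. Corn oil replicate 2 lay alone on another slide, so a fit with the slide as a block and a fit without that array are the same check. Values below are log2 intensities relative to the 75th percentile of their array, and a log2 change is the treated mean minus the corn oil mean. They serve to compare arrays for 1 probe, never 1 probe with another.

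None of the 4 tested transporters passed the threshold, an adjusted p of 0.05 in limma after Benjamini-Hochberg adjustment over all genes. Over all genes 3 passed, or 0.0255% (2 higher, 1 lower). At an unadjusted p under 0.05 there was 1 of the 4 transporters, Slc22a5, where the share over all genes was 21.6%. The arrays of the groups did not overlap for 1 of the 4, again Slc22a5, against 30.2% of all genes in either direction and 10.1% with the treated arrays lower. The 4 log2 changes ran from -0.40 to 0.46, with a median of -0.04, beside a median of 0.04 over all genes tested.

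Upstream sequences are shown for Slc22a5, the member whose treated arrays lay below all corn oil arrays on both of its probes, and for the member whose probes differed most, Slc22a2, so that their base composition can be compared. They are the 250 bases before the start that RefSeq gives on the GRCr8 assembly, 5′ to 3′ on the gene's strand. Capitals mark matches to a GC box (GGGCGG) or a CCAAT box (CCAAT) on either strand, motifs that do not overlap here. The windows are chr10:38536073-38536322 on the minus strand for Slc22a5 and chr1:50711020-50711269 on the minus strand for Slc22a2.
Slc22a5: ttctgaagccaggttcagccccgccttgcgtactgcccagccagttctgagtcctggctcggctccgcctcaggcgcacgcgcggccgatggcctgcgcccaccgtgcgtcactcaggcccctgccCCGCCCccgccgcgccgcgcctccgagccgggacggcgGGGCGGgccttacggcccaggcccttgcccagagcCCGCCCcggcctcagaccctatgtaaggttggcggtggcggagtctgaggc
Slc22a2: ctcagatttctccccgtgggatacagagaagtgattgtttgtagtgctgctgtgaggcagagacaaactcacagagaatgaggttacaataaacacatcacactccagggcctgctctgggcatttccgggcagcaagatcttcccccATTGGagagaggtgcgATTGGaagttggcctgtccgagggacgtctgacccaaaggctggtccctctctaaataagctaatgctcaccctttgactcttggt

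The Slc22a5 window is 74.4% G and C and holds 28 CpG, more than 93.2% of the 33469 promoter windows of that length, whose median is 5. It has 3 GC boxes, a motif in 30.5% of all windows, and 0 CCAAT boxes. The Slc22a2 window is 51.2% G and C with 5 CpG, and has 2 CCAAT boxes, a motif found in 34% of windows, and 0 GC boxes. A TATA box (TATAAA, 12.9% of windows), an E-box (CACGTG, 5.59%) and an antioxidant response element core (TGACNNNGC, 10.1%) were each searched on both strands, and these letters were in neither window. Of the other members in the table, Slc22a4 had 22 CpG, 2 GC boxes and 1 antioxidant response element core, and Slc22a3 had 4 CpG and none of the motifs. Slc47a1 was not used here. Matches of letters describe these windows and do not show binding.

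Slc22a5 encodes OCTN2, the sodium-dependent carnitine transporter of the brush border. Its brighter probe read 2.67, 2.49 and 2.56 on corn oil replicates 1, 2 and 3, and 2.12, 2.31 and 2.10 on treated replicates 1, 2 and 3. All 3 treated arrays lay below all 3 corn oil arrays, with a gap of 0.18 between the nearest arrays of the groups. The group means were 2.57 ± 0.09 and 2.17 ± 0.12 (SD, n = 3 per group). The log2 change was -0.40 ± 0.10 (SE), that is 0.759-fold, with a 95% interval of 0.645 to 0.893 and an adjusted p of 0.13 in limma. By unadjusted p (0.00577) it stood 521st of the 11748 genes. In whole cortex, fewer cells of a type and less RNA per cell cannot be told apart.

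The dimmer Slc22a5 probe gave a lower value still on the treated arrays. It read 0.87, 0.71 and 0.76 on corn oil replicates 1, 2 and 3 and 0.14, 0.11 and -0.11 on treated replicates 1, 2 and 3, again with no overlap between the groups. Its log2 change was -0.74 ± 0.11 (SE, n = 3 per group; limma adjusted p = 0.119 over 40894 probes). Over all probes, 0 passed that threshold (0%), 20.7% had an unadjusted p under 0.05, and 12.9% had treated arrays that all lay below the corn oil arrays. The changes from the 2 probes differed by 0.34, a larger difference than for 86.4% of the 6060 genes with more than 1 kept probe. Both probes ordered the corn oil arrays alike, with replicate 1 highest and replicate 2 lowest. The log2 change of the brighter probe stayed below 0 under each of the 17 alternative settings run, from -0.72 with spike-in scaling, which moves the median of all genes by -0.32, to -0.35 without corn oil replicate 1. The adjusted p ranged from 0.0896 to 0.361 over them, so that no setting brought it past the threshold.

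Slc22a4 encodes OCTN1, the ergothioneine transporter, and lies near Slc22a5 on the same chromosome, with Slc22a21 as the 1 protein-coding gene between them in RefSeq. Its brighter probe read 1.02, 1.08 and 0.97 on corn oil replicates 1, 2 and 3 and 1.41, 0.47 and 0.90 on treated replicates 1, 2 and 3. The corn oil rats had an SD of 0.06, whereas the treated rats spread on both sides of them, with an SD of 0.47. The log2 change was -0.09 ± 0.23 (SE, n = 3 per group; limma adjusted p = 0.84), with an interval from 0.637-fold to 1.38-fold. Without treated replicate 2, the lowest array, it was 0.14, and without treated replicate 1, the highest, it was -0.33.

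The dimmer Slc22a4 probe placed the treated arrays differently. It read -0.71, -0.58 and -0.76 on corn oil replicates 1, 2 and 3 and -0.80, -1.24 and -1.23 on treated replicates 1, 2 and 3. Here the treated arrays all lay below the corn oil arrays, treated replicate 1 by 0.04 only, and the log2 change was -0.41 ± 0.15 (SE, n = 3 per group; limma adjusted p = 0.21). Treated replicate 1 was the highest treated array on both probes and treated replicate 2 the lowest. Of the 8 kept probes of the members, 3 (both of Slc22a5 and the dimmer of Slc22a4) had treated arrays below all corn oil arrays, as 12.9% of all probes did. None had treated arrays above all corn oil arrays, as 17.1% of all probes did.

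**Figure D1:**
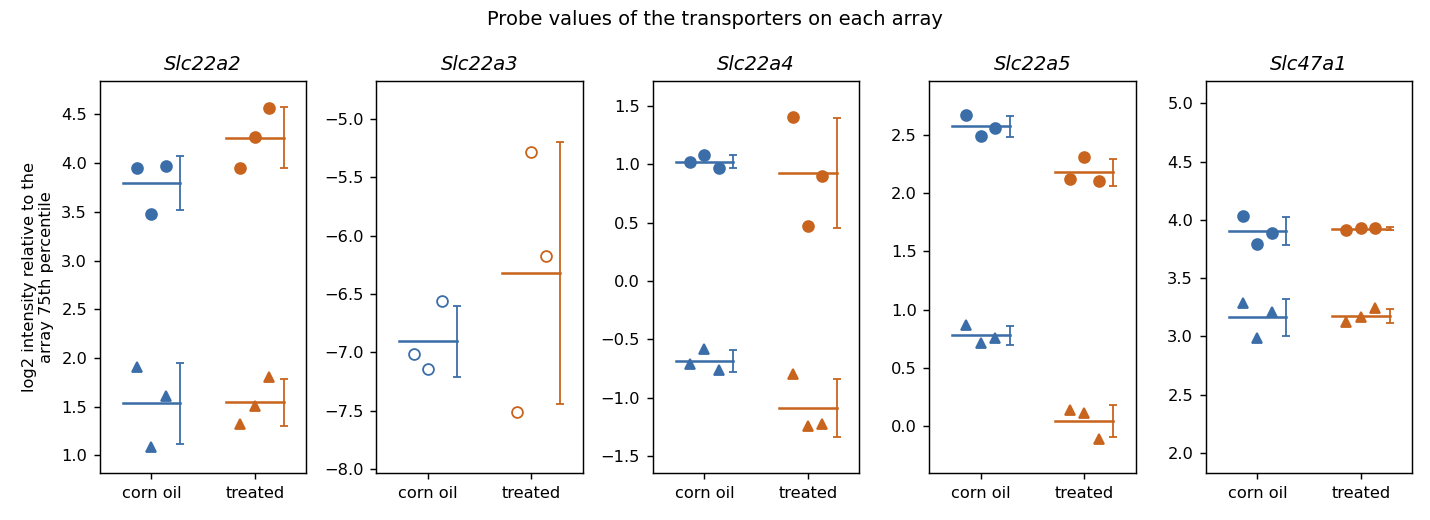
Log2 intensity relative to the array 75th percentile (vertical axis, of a different range in each panel) of each probe on 3 corn oil and 3 treated arrays, with circles for the brightest probe, triangles for the dimmer probe, horizontal lines for group means and bars for the SD. The 3 treated arrays of Slc22a5 lie between 2.10 and 2.31 on the brighter probe, below the corn oil arrays at 2.49 to 2.67, and open circles mark Slc22a3, whose signal no array placed well above background.

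Slc22a2 encodes OCT2, the main basolateral organic cation transporter of the proximal tubule. Its brighter probe read 3.95, 3.48 and 3.97 on corn oil replicates 1, 2 and 3 and 3.95, 4.27 and 4.57 on treated replicates 1, 2 and 3. Treated replicates 2 and 3 lay above all corn oil arrays, and treated replicate 1 lay among them, so the groups overlapped. The means were 3.80 ± 0.28 and 4.26 ± 0.31 (SD, n = 3 per group). The log2 change was 0.46 ± 0.20 (SE), or 1.38-fold with an interval of 0.98 to 1.94, and it did not pass (limma adjusted p = 0.249).

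The dimmer Slc22a2 probe gave a log2 change near 0. It read 1.91, 1.09 and 1.61 on corn oil replicates 1, 2 and 3 and 1.32, 1.51 and 1.80 on treated replicates 1, 2 and 3. Corn oil replicate 1 was the highest of all 6 arrays and corn oil replicate 2 the lowest, with the treated arrays between them, and the log2 change was 0.0040 ± 0.23 (SE, n = 3 per group; limma adjusted p = 0.994). The probes of Slc22a2 thus gave changes 0.46 apart, more than in 92.3% of genes with more than 1 kept probe, where the median difference was 0.12. The 0.46 of the brighter probe came to 0.30 without corn oil replicate 2, which equals the slide block, 0.29 with quantile-normalized values, 0.15 when scaled on spike-ins and 0.23 as a mean over the probes.

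Slc47a1 encodes MATE1, the apical proton exchanger that releases organic cations into urine. Its brighter probe read 4.03, 3.79 and 3.89 on corn oil replicates 1, 2 and 3 and 3.91, 3.93 and 3.93 on treated replicates 1, 2 and 3. All treated arrays fell inside the corn oil range. The log2 change was 0.02 ± 0.09 (SE, n = 3 per group; limma adjusted p = 0.913), with a 95% interval of 0.873-fold to 1.18-fold under the 75th percentile scaling. The dimmer probe read 3.29, 2.99 and 3.21 on corn oil replicates 1, 2 and 3 and 3.12, 3.17 and 3.24 on the treated ones. Its log2 change of 0.02 ± 0.11 (SE; limma adjusted p = 0.945) was within 0.01 of that of the brighter probe. The sign near 0 turned with the scaling, to -0.14 with quantile-normalized values and -0.30 with values scaled on spike-ins.

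**Figure D2:**
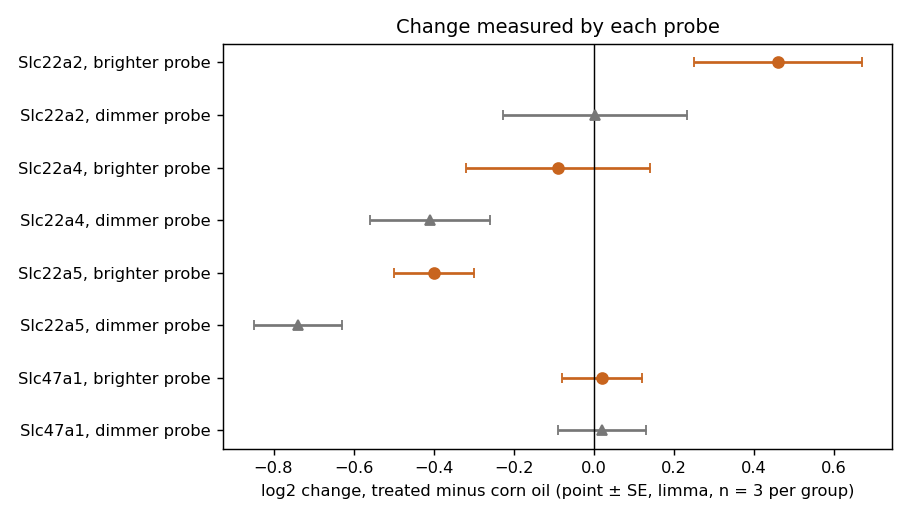
Log2 change, treated minus corn oil, of the 8 kept probes (horizontal axis, point ± SE of the fit over all probes, n = 3 per group), with circles for the brightest probe of a gene and triangles for the dimmer probe. Both Slc22a5 probes lie below 0, at -0.40 and -0.74, the Slc47a1 probes lie at 0.02, and those of Slc22a2 lie at 0.46 and 0.0040.

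Slc22a3 encodes OCT3, the extraneuronal monoamine transporter, which is known from heart, placenta and muscle as well as kidney. Its 1 probe was not well above background on any of the 6 arrays, with values from -7.14 to -6.56 on corn oil arrays and from -7.51 to -5.28 on treated arrays. Such values have no order, and no fold change is given. Slc47a2, the related exchanger MATE2, likewise had no array well above background.

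Shifts between members were compared within each array, which removes the scaling of the array. The Slc22a2 value minus the Slc47a1 value, the uptake step relative to the efflux step, was -0.08, -0.31 and 0.08 on corn oil replicates 1, 2 and 3 and 0.04, 0.34 and 0.64 on treated replicates 1, 2 and 3. Treated replicate 1 lay inside the corn oil range and the others above it, a shift of 0.44 with an exact two-sided permutation p of 0.20 (0.40 adjusted over 2 pairs), where 3 arrays against 3 cannot go below 0.10. The brighter probe of each gene was used, and the dimmer Slc22a2 probe, with a log2 change of 0.0040, was not. For Slc22a5 minus Slc22a4 the shift was -0.31 (exact permutation p = 0.50, 0.50 adjusted). Its treated values were 0.70, 1.83 and 1.20 on replicates 1, 2 and 3, against 1.64, 1.41 and 1.60 for corn oil. That shift was -0.03 without treated replicate 1 and -0.60 without treated replicate 2. The planned pair of Slc22a2 and Slc22a3 could not be compared, as Slc22a3 was not well above background.

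Genes with a pattern over the 6 arrays most like that of each member are given by Pearson's r, as a description over 6 arrays that share scaling and slide. For Slc22a5 they were Pcsk7 (r = 0.995), a proprotein convertase, and Arf2 (0.990), a small GTPase. For Slc22a2 the closest was Tram1 (0.992), of the translocon. Slc22a4 was most like Cdk5rap2 (0.994), a centrosome protein, and Cfap97 (0.986). Slc47a1 was most like Rbm18 (0.998) and Kif18a (0.992), a kinesin. With so few arrays such values are common: 43 genes had r over 0.95 with Slc22a5, 37 with Slc22a2, 56 with Slc22a4 and 14 with Slc47a1.

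Other transporters of cations, choline and carnitine had small log2 changes in both directions. Of 21 listed, 16 were on the array by name and 12 were tested. In limma 0 of the 12 passed in either direction, and 1 had an unadjusted p under 0.05, beside 21.6% of all genes. Their log2 changes ran from -0.17 to 0.27 with a median of -0.04. Slc22a18, an organic cation transporter-like protein, had 0.26 ± 0.09 (SE; limma adjusted p = 0.191) and its other probe 0.20. Slc44a1, a choline transporter, had -0.17 ± 0.07 (adjusted p = 0.248), but 0.24 from its other probe.

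Genes of carnitine synthesis, of the mitochondrial carnitine shuttle and of the fatty acid oxidation that it feeds did not move in a common direction. Of 17 listed, 16 were on the array and all of these were tested. Of them 0 passed in limma, and 1 above 0 and 2 below 0 had an unadjusted p under 0.05, beside 21.6% of all genes. Changes were above 0 for 7 and below 0 for 9, with a median of -0.01. Hadhb and Hadha, the subunits of the mitochondrial trifunctional protein, had -0.34 ± 0.08 and -0.33 ± 0.08 (SE; limma adjusted p = 0.13 for each), with treated arrays below all corn oil arrays. Tmlhe, the enzyme of the first step of carnitine synthesis, had 0.47 ± 0.19 (adjusted p = 0.22), and its groups overlapped. Bbox1, the enzyme of the last step, was named after its value was seen. All 3 corn oil arrays but 0 of the treated arrays read it well above background, so that it entered the test through the corn oil group and its treated level has only a bound. Its corn oil mean was at least 1.35-fold above the treated mean, for which the upper bound was -5.41. That bound takes for each treated array the higher of its value and the lowest signal well above background. The corn oil arrays read -4.21, -5.34 and -5.38 on replicates 1, 2 and 3, so the 1.35-fold came mainly from replicate 1. Bbox1 did not pass (limma adjusted p = 0.277). Slc25a20, the carnitine-acylcarnitine carrier of the inner mitochondrial membrane, had 0.03 ± 0.07, and it too was named after its value was seen.

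Organic anion and urate transporters of the same tubule cells had a median log2 change of 0.59 over 16 tested genes, beside 0.04 over all genes tested. Of the 16, 14 had changes above 0, and the changes ran from -0.08 to 2.39. The 3 genes given with values below are those of lowest p and do not stand for the whole list. The median was 0.30 without treated replicate 3 and 0.27 when scaled on spike-ins. In limma 0 passed, and 6 had an unadjusted p under 0.05, all higher, where 1679 of 11748 genes were higher at that p. The treated arrays lay above all corn oil arrays for 6 of the 16, beside 20.1% of all genes. Slc22a7, an organic anion transporter, had 2.39 ± 0.25 (SE; limma adjusted p = 0.0799), Slc17a1, a phosphate and urate transporter, 0.86 ± 0.20 (0.13), and Slco1a6, an organic anion transporting polypeptide, 1.18 ± 0.30 (0.132). Without treated replicate 2, 3 of the 16 passed (Slc22a7, Slc17a1 and Slc17a3), and 0 of the 4 cation and carnitine transporters did, where 74 of 11818 genes passed. Whether the 2 groups of transporters differ from each other was not tested.

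Scaffold proteins and ion exchangers that work beside these transporters included 13 tested genes, of which 0 passed in limma, with a median of -0.04. Of the 13, 2 above 0 and none below 0 had an unadjusted p under 0.05, beside 21.6% of all genes. Fxyd2, the gamma subunit of the sodium pump, had 0.35 ± 0.11 (SE; adjusted p = 0.163), the PDZ scaffold Nherf4 0.29 ± 0.12 (0.226), and the kinase Yes1, reported to act on OCT2, -0.25 ± 0.10 (0.237). Of the 13 transcription factors reported to act on these genes, 0 passed (0 at an unadjusted p under 0.05), 3 had changes above 0 and 10 below, and the median was -0.12. Ppargc1a, a coactivator of mitochondrial genes, had -0.36 ± 0.15 (adjusted p = 0.236), and Sp1, which binds GC boxes, -0.23 ± 0.15 (0.389).

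**Figure D3:**
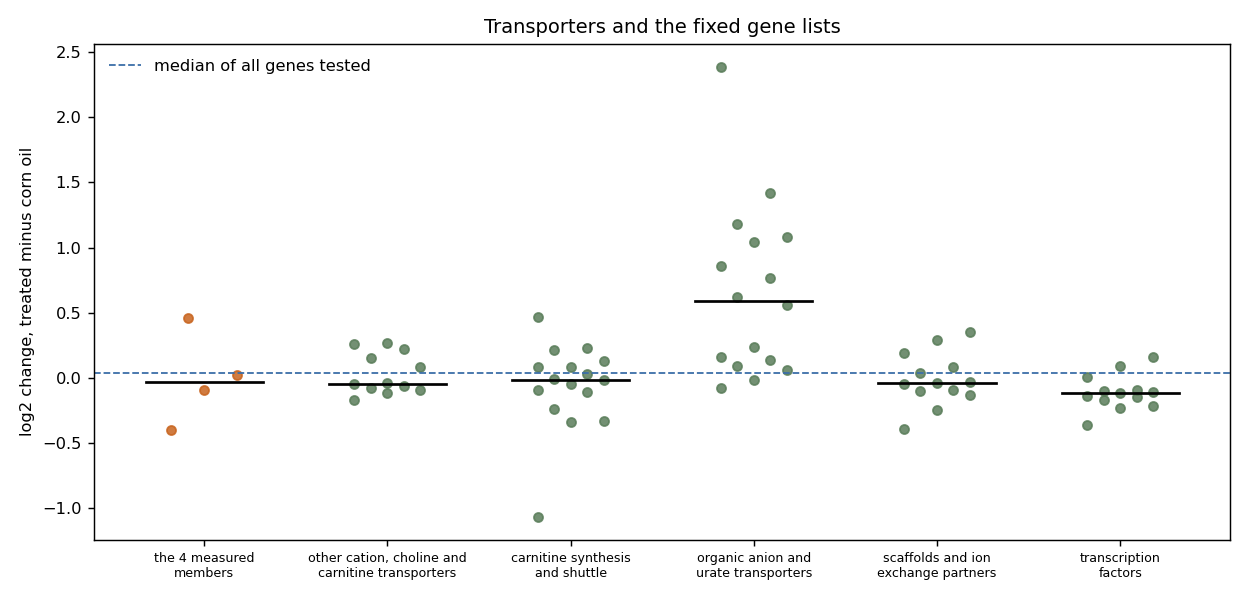
Log2 change, treated minus corn oil (vertical axis), of each tested gene in 6 groups, with black lines for group medians and a dashed line for the median of all genes tested, 0.04. The 4 members spread from -0.40 to 0.46 around a median of -0.04, and the organic anion and urate transporters have a median of 0.59. The lowest point of the carnitine genes is Bbox1 at its fitted -1.07, which is no bound.

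Markers of the cells that carry these transporters were read on the same arrays. The mean log2 value over the 9 proximal tubule markers lay at 6.78 to 6.79 in corn oil rats and at 6.66 to 6.77 in dosed rats. Of the 9, 0 passed in limma, and 1 above 0 and 3 below 0 had an unadjusted p under 0.05, beside 21.6% of all genes. Their median change was -0.13. The endocytic receptor Lrp2 had -0.34 ± 0.10 (SE; adjusted p = 0.15) and Slc34a1, the phosphate transporter, 0.19 ± 0.08 (0.234). The mean over 5 markers of the straight segment (S3), where OCT2 is abundant in the rat, lay at -0.01 to 0.41 in corn oil rats and at 0.59 to 1.00 in dosed rats (led by Slc22a7 and Slc7a13). The median change over these 5 was -0.02, as Acsm3 (-0.50), Slc5a8 (-0.44) and Slc22a13 (-0.02) had values below 0. Slc22a7 and Slc22a13 are also among the organic anion and urate transporters above, so the S3 mean is no separate reading of them. Distal and connecting tubule markers had 4 of 4 tested changes below 0 (mean 0.67 to 1.01 on corn oil, -0.07 to 0.58 on treated arrays), and 3 of 3 erythroid markers had changes above 0 (2.13 to 2.40 against 3.14 to 4.50). The median change over all genes tested was 0.04. The part of these markers in the values of Slc22a5 and Slc22a2 was not tested.

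**Figure D4:**
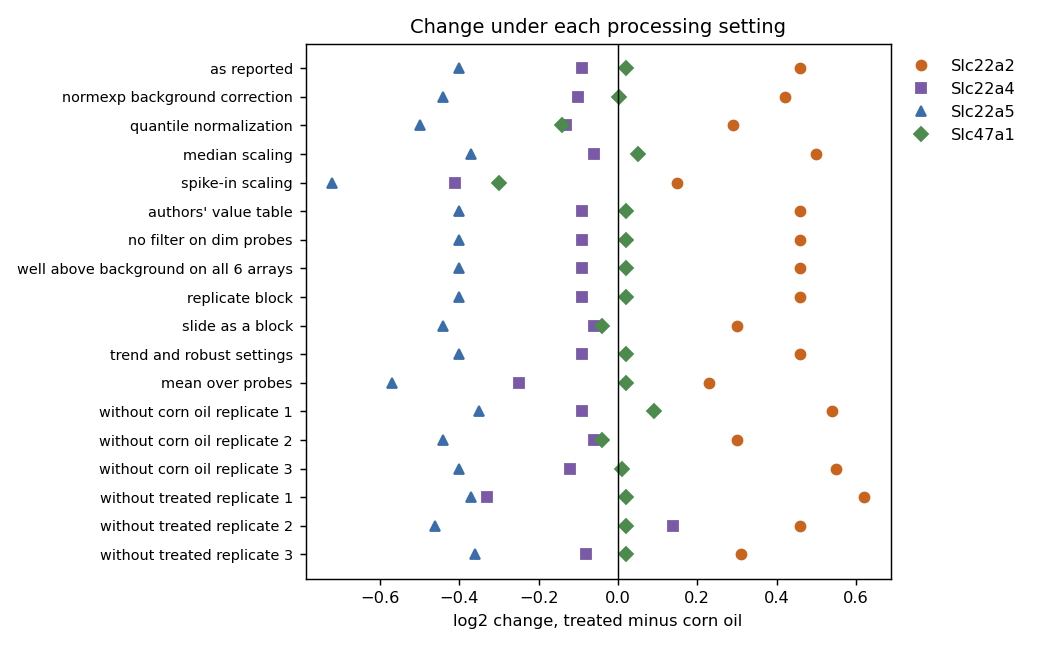
Log2 change, treated minus corn oil (horizontal axis), of the 4 tested transporters as reported and under 17 other settings (vertical axis), with a symbol for each gene. Slc22a5 stays between -0.72 and -0.35 and Slc22a2 between 0.15 and 0.62, while Slc22a4 and Slc47a1 lie on either side of 0.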

How the data were processed

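The scanner files hold a deposited spot intensity made by Agilent Feature Extraction (10.7.1.1 per the file headers, 10.7 in the submitters' processing notes), which subtracts background and detrends it, with deposited flags for background, saturation and outliers (other). The authors' deposited value table is a linear ratio of intensity to the array's 75th percentile, an identity found by comparison with the scanner files over 36961 probes. Within each group its columns fit scanner files under other replicate numbers, so replicate numbers here follow the scanner files.

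Each log2 intensity was taken relative to the 75th percentile of its array, and the groups were compared in limma 3.58.1 (lmFit, eBayes; R 4.3.3) with no blocking factor. Probes were kept if well above background on all arrays of a group, 64 outlier probes were left out, and genes were named by RefSeq accession (27460 of 61657 probes, GRCr8 table). Coordinates are given only for the printed RefSeq promoter windows (GRCr8), since the array was annotated on another build. Probe sequences were not used here, so cross-hybridisation between related transporters was not assessed. The fit was tested on simulated data. Exact permutation tests used scipy 1.17.1.

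The 5 members, the gene lists and the tests were chosen with earlier results of these data known. Named genes were the 5 members, the 3 genes of lowest p in each list where none passed, and the 2 genes most correlated with each member. Some genes that the rule takes are left out of the text. Alternatives were normexp background correction (offset 50), quantile, median and spike-in scaling (7 probes), the authors' table, dropping the filter or requiring all 6 arrays, replicate and slide blocks, trend and robust settings, the mean over probes, and leaving out each array.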

Additional observations from a re-analysis of the deposited data

How the results depend on the processing

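No transporter passed the threshold under any of the 17 alternatives run for each of the 4 tested members. Slc22a2 and Slc22a5 kept their direction in all 17. Their log2 changes stayed at 0.46 and -0.40 with the authors' table, the filter settings, the replicate block, and trend and robust settings. Such settings could not turn a direction. The slide block repeats the fit without corn oil replicate 2. Slc22a4 turned to 0.14 without treated replicate 2, and ran from -0.33 to 0.14 when 1 array was left out. Slc47a1 turned to -0.14 with quantile normalization, -0.30 with spike-in scaling and -0.04 under the slide block, and ran from -0.04 to 0.09 when 1 array was left out. The within-array shifts, read from the brighter probes only, kept their direction where they were computed. Scaling an array by 1 factor cannot change them, and they were not computed for the mean over probes. Over all genes, the 3 calls became 56 with normexp, 9 with spike-in scaling, 69 with trend and robust settings, and 0 with no filter on dim probes, the slide block and the mean over probes (3496, 1764 and 2443 genes at an unadjusted p under 0.05 in limma), and 0 to 74 when 1 array was left out. Of the organic anion and urate transporters, 1 passed with normexp and 1 with trend and robust settings (Slc22a7 in each), and 0 to 3 when 1 array was left out. The causes were not tested.

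Arrays of the same number did not deviate together (correlations of 0.01, -0.05 and -0.03 across genes for replicates 1, 2 and 3). Arrays of different numbers gave -0.03 to 0.05. The labels name no pairing of the rats, and these correlations cannot show whether there was one. With the replicate block, 0 genes passed (2121 at an unadjusted p under 0.05 in limma). This block cannot move a log2 change, since each number stands for 1 array per group, and only the SE and p can differ. The log2 changes therefore stayed at 0.46 for Slc22a2, -0.09 for Slc22a4, -0.40 for Slc22a5 and 0.02 for Slc47a1. Spike-in scaling moved the median of all genes by -0.32 and took the share of lower genes at an unadjusted p under 0.05 from 33.8% to 95.3%, quantile normalization to 53.7% and normexp to 22.1%. Slc22a3, below background, allows no comparison at this signal.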

Other observations

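Among the corn oil arrays, replicate 2, the array on the other slide, was the lowest for both probes of Slc22a2, Slc22a5 and Slc47a1 and the highest for both probes of Slc22a4. On the treated arrays, replicate 3 was the highest and replicate 1 the lowest for both probes of Slc22a2 and of Slc47a1. The brighter Slc47a1 probe differed little between them, at 3.91, 3.93 and 3.93 on treated replicates 1, 2 and 3. The other genes did not share this order. Treated replicate 3 was the lowest for both probes of Slc22a5, and treated replicate 1 was the highest for both probes of Slc22a4.

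The spread between treated rats differed from gene to gene. The SD over the treated arrays was 8.34 times that over the corn oil arrays for the brighter probe of Slc22a4, and 0.0602 times for that of Slc47a1. On the dimmer probes the ratios were 2.69 for Slc22a4 and 0.383 for Slc47a1. With 3 arrays per group these ratios were not tested.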
